A study of Homo sapiens with 121 samples.

Results

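Among 121 single human embryonic stem cells (hESCs) of the WA26 line, 44 cells at the 2 ends of a mitotic expression scale were compared. The groups were chosen by measured values. The 68 cells with more than 8000 genes above a TPM of 1 (a relative transcript level per transcript length) were ranked by the mean log2(TPM + 1) of CCNB1, CCNA2, CDC20, PLK1, TOP2A, UBE2C, AURKA and CENPF, here called the score. The 22 cells with the highest scores were named mitotic-gene high and the 22 with the lowest mitotic-gene low, and 24 cells lay between them. All cells came from undifferentiated cultures in E8 medium on Matrigel, passaged with EDTA and a ROCK inhibitor, and the labels name no genetic change or added treatment. In each cell, polyadenylated RNA was sequenced after removal of the genomic DNA, which served to measure telomere length, and the labels place each cell in a long, medium or short telomere group. No measure of cell cycle phase other than mRNA was used here, so the names high and low describe mRNA levels only. No label names a separate culture, and the cells of a group were therefore treated as 1 sample, with SDs across cells and no p-values.

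A cell that prepares to divide raises cyclins A and B, which activate the kinase CDK1, and then the kinases PLK1 and Aurora A build the mitotic spindle. Kinetochores join chromosomes to spindle microtubules, and the anaphase-promoting complex with CDC20 and UBE2C marks cyclin B and securin for destruction so that the chromatids part. Many genes of this programme are switched on late in the cycle through a cell cycle homology region (CHR) in their promoters, bound by the DREAM and MMB-FOXM1 complexes, often close to CCAAT boxes bound by NF-Y, whereas genes of DNA replication are commonly switched on earlier through E2F sites. Human embryonic stem cells have a short G1 phase and spend much of the cycle in S phase.

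The promoters below belong to genes of the mitotic programme and show where those motifs lie. Sequences and start sites are from RefSeq, on GRCh38.p14, whereas the expression values were made on hg19, so these coordinates belong to the sequences only. The searched CHR letters were TTTGAA and TTCGAA, the CCAAT box was CCAAT, and both strands were read, so that TTCAAA and ATTGG are matches too. Capitals mark these matches. Matches can overlap, as in CDCA8 and HMMR, where capitals of neighbouring matches run together. The first 10 genes are the members of the mitotic lists among the 15 highest differences between the groups whose 300-base window, from 250 bases before to 50 after the start, held a CHR match. PLK1 and CDC20 are ranking genes.
CENPA, chr2:26785968-26786067, plus strand: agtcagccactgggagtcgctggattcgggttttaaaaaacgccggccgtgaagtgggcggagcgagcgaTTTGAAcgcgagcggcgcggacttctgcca
PSRC1, chr1:109283145-109283244, minus strand: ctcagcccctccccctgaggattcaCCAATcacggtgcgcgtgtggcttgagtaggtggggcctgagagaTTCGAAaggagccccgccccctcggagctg
KIF23, chr15:69414224-69414323, plus strand: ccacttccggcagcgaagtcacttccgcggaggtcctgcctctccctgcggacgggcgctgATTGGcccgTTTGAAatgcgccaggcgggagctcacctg
CDCA8, chr1:37692423-37692522, plus strand: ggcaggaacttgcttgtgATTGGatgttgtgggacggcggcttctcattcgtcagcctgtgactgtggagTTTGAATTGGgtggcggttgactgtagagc
CKAP2L, chr2:112764597-112764696, minus strand: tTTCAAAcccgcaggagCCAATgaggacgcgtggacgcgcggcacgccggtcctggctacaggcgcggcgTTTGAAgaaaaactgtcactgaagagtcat
CDK1, chr10:60778100-60778199, plus strand: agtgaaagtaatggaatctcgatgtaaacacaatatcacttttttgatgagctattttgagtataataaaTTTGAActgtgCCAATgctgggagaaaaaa
HMMR, chr5:163460540-163460639, plus strand: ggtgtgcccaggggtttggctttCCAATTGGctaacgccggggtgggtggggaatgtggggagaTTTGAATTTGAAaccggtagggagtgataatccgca
PIF1, chr15:64825638-64825737, minus strand: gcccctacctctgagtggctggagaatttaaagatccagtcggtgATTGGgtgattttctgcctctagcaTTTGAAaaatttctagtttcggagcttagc
DEPDC1, chr1:68497080-68497179, minus strand: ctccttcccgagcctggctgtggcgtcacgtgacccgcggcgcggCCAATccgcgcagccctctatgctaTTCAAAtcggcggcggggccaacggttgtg
HJURP, chr2:233854617-233854716, minus strand: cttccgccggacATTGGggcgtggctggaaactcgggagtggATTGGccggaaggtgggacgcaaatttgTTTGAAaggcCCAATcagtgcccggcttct
PLK1, chr16:23678790-23678889, plus strand: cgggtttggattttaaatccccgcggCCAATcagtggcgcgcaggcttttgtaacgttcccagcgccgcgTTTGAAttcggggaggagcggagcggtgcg
CDC20, chr1:43358846-43358945, plus strand: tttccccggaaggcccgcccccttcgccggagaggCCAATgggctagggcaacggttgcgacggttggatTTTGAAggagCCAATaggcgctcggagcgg
In PSRC1, CDCA8, PIF1, DEPDC1 and PLK1 the CHR match began 20 to 29 bases before the start, and in each of these a CCAAT match lay further upstream in the printed stretch. CENPA held a CHR match beginning 18 bases before the start and no CCAAT match in the printed stretch. In CDK1 the match nearest to the RefSeq start began 161 bases before it.

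For contrast, 3 genes of DNA replication are shown with the E2F matches that they held upstream of the start. They were chosen after their values were seen. The E2F letters were TTTGGCGC, TTTCCCGC, TTTGGCGG and TTTCCCGG on both strands, and capitals mark E2F and CCAAT matches. The printed genes do not divide fully by motif. Outside the printed stretches, MCM6 also held a CHR match beginning 246 bases before the start, and CENPA an E2F match beginning 232 bases before it.
MCM6, chr2:135876502-135876603, minus strand: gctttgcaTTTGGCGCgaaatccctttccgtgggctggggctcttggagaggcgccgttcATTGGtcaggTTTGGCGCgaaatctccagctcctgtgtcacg
PCNA, chr20:5126650-5126751, minus strand: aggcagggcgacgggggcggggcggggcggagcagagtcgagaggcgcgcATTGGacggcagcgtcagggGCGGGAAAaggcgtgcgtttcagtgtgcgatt
GINS2, chr16:85688954-85689055, minus strand: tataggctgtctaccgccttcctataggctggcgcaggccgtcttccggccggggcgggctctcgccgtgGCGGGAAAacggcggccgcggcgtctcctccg

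The 8 ranking genes differed because they chose the cells, and their values are a description only. UBE2C, a ubiquitin-conjugating enzyme that works with the anaphase-promoting complex, ran from 1132 to 2864 TPM in mitotic-gene high cells (median 2052). In mitotic-gene low cells it ran from 77.4 to 457 TPM (median 213). TOP2A, the topoisomerase that untangles sister chromatids, ran from 134 to 300 TPM against 7.86 to 97.7 TPM, with medians of 201 and 39.9. These were the 2 ranking genes whose groups did not overlap. The difference of mean log2(TPM + 1) was 3.33 for UBE2C, 2.83 for AURKA, 2.42 for TOP2A, 2.39 for PLK1, 1.65 for CDC20, 1.60 for CENPF, 1.36 for CCNB1 and 0.62 for CCNA2. A difference of 1 on this scale is 2-fold in TPM + 1. CCNA2, the cyclin that already acts in S phase, had medians of 132 and 85.9 TPM with wide overlap, and its correlation with the mean of the other 7 genes over the 68 cells was the weakest of the 8 (Pearson r 0.35, against 0.55 to 0.82 for the rest). Across the 28 pairs of ranking genes the Pearson r over 68 cells ran from 0.17 to 0.87, with a median of 0.53. When each gene was left out of the score in turn, 19 to 22 of the 22 high cells and 19 to 22 of the 22 low cells stayed in their group, and the difference of the gene left out remained between 0.57 (CCNA2) and 2.95 (UBE2C). The low cells were not empty of these mRNAs, since 7 of the 8 genes were above TPM 1 in all 22 of them and AURKA in 21.

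The score was a continuous scale with no break at either border. It ran from 7.30 to 8.21 in the high cells (mean 7.62, SD 0.26) and from 4.11 to 6.22 in the low cells (mean 5.59, SD 0.53). The highest low cell had 6.22 and its neighbour between the groups 6.29, and the lowest high cell had 7.30 against 7.25 for the cell just outside. The low cells spread more widely, down to a single cell at 4.11 with the next at 4.78.

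**Figure D1:**
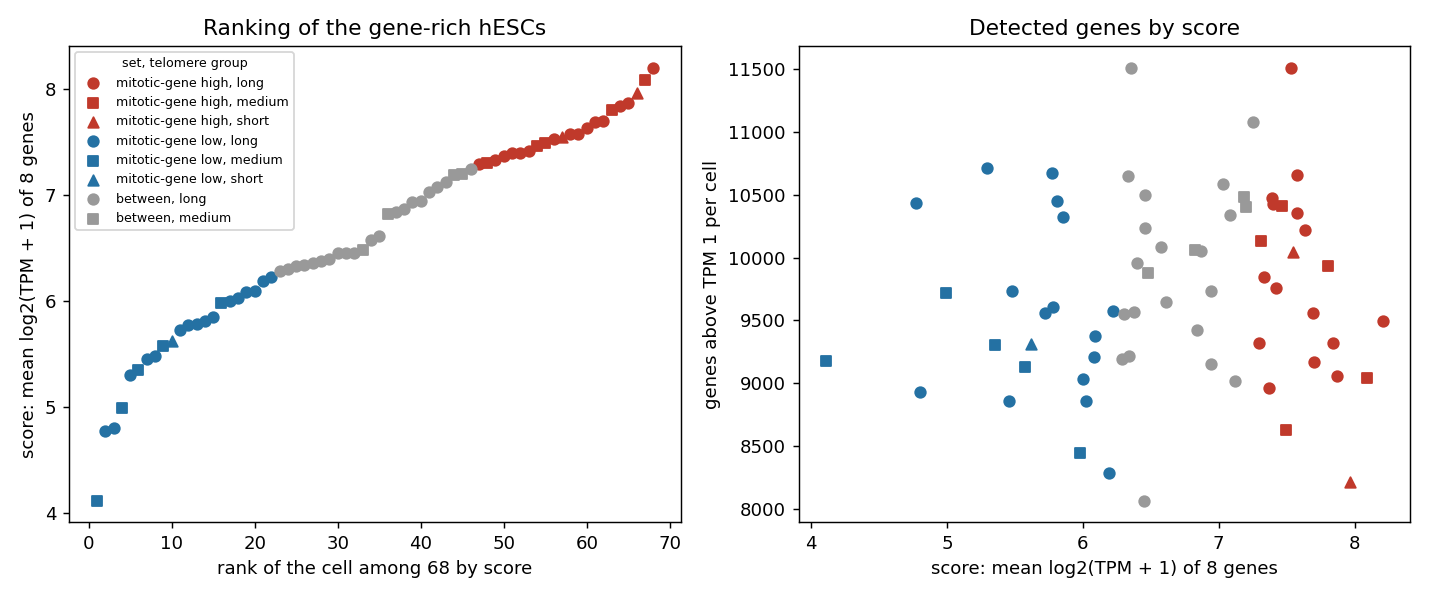
Left, the score (mean log2(TPM + 1) of 8 genes) by rank for the 68 gene-rich hESCs. Right, genes above TPM 1 per cell by score. Points are cells, coloured by set (high, low, between) and shaped by telomere group. The scale is continuous at both borders, and detected genes of high and low cells overlap from 8286 to 10715.

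Detected genes (above TPM 1) averaged 9751 ± 764 (SD, n = 22 cells) in the high cells and 9487 ± 684 in the low cells, a difference smaller than either SD. Of the cells nearest the threshold on detected genes, the lowest kept had 8064 and the highest left out 7686. The high cell had more detected genes in 60.0% of the 484 high-low pairs of cells. Over the 68 cells the score and detected genes had a Pearson r of 0.10. The summed TPM of ribosomal protein genes averaged 246505 ± 37696 in the high cells and 267527 ± 31662 in the low cells, and the high cell was above the low cell in 27.7% of pairs. Because TPM is a share of each cell's total, this sum moves with all other values. After rescaling without these genes, 275 genes were at least 1 higher and 60 at least 1 lower. Long telomere cells made up most of both groups, as of all 68 ranked cells (51, 75.0%) and of the 24 between (20, 83.3%). They were 15 of 22 among the high cells (68.2%, exact 95% interval 45.1 to 86.1%) and 16 of 22 among the low cells (72.7%, 49.8 to 89.3%). Medium telomere cells were 5 of 22 in each group, and short telomere cells were 2 of 22 and 1 of 22. These intervals cover counting error only, and a difference of make-up within them was not detectable with 22 cells a group. Telomere to reference ratios of single cells were not used here.

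Genome-wide, the comparison covered 6178 genes with a mean of at least 10 TPM over the 68 cells, without the ranking genes. Differences of at least 1 were mostly upward, with 289 genes (4.68%) higher and 55 genes (0.89%) lower in mitotic-gene high cells, and the median of all 6178 was 0.12. With the added demand that the high cell lay above the low cell in at least 75% of the 484 pairs (or at most 25% for lower genes), 99 genes (1.6%) were higher and 6 (0.0971%) lower. The difference was larger than the SD of both groups for 65 of the higher genes (1.05%) and 2 of the lower ones (0.0324%). In 0 of the 6178 genes (0.0%) were the 2 groups of cells fully apart. The lists of mitotic genes by role (CDK1 switch, kinetochore, passenger complex with cytokinesis, and spindle motors) together held 94 genes past the floor. Of these 51 were at least 1 higher, 1 (CENPQ) was at least 1 lower and 87 were above 0, where 63.6% of all genes were. They made up 45 of the 99 genes of the stricter rule, 39 of the 65 whose difference passed both SDs, 13 of the 15 highest differences and 26 of the 40 highest. The lists name the same programme as the ranking genes, and their counts describe it and are not separate evidence.

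**Figure D2:**
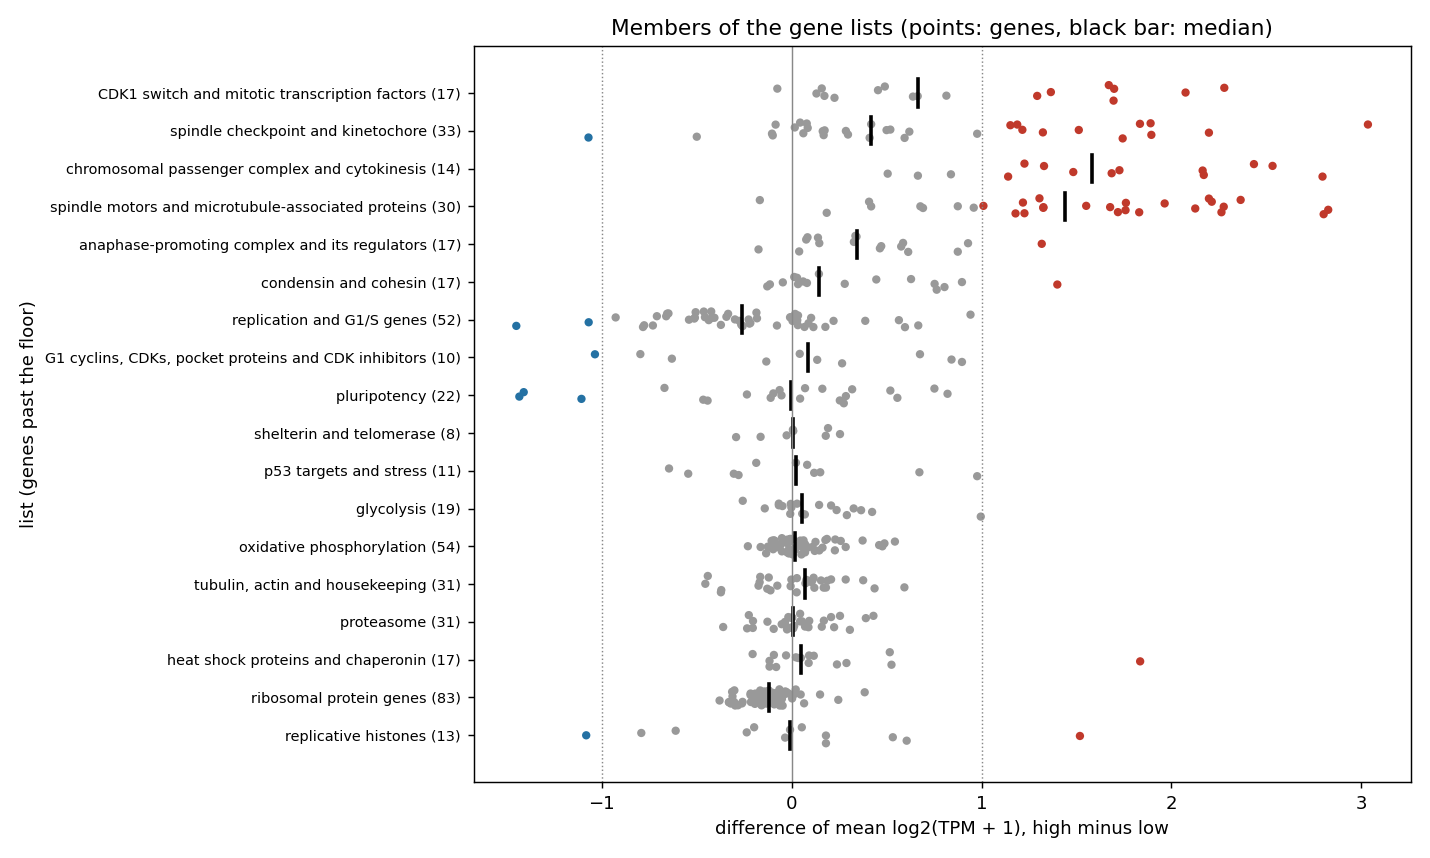
Difference of mean log2(TPM + 1), mitotic-gene high minus low, for each gene past the floor (points) by list, with the list median (black bar) and dotted lines at -1 and 1. Passenger complex genes (median 1.58) and spindle motors (1.44) stand to the right, replication genes (-0.26) to the left, and metabolic and ribosomal lists close to 0.

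The CDK1 switch list covers the kinase, its partners and the transcription factors that drive entry into mitosis. Of its 17 genes past the floor, 7 were at least 1 higher and none at least 1 lower, with a median difference of 0.66. CDK1, the mitotic kinase itself, ran from 44.5 to 1154 TPM in high cells with a median of 518, and from 0.18 to 366 TPM in low cells with a median of 107. Both groups ranged widely and overlapped, and the difference was 2.28 with the high cell above in 92.8% of pairs. CKS2, a small CDK subunit and the most abundant of the named members, ran from 1414 to 4054 TPM against 271 to 1834 TPM, a difference of 1.36 (SD 0.37 and 0.72) with 97.7% of pairs. CCNF, an F-box protein of the G2 phase, had medians of 19.5 and 5.23 TPM and a difference of 2.07. GTSE1, a microtubule protein of G2, and CDC25C, the phosphatase that activates CDK1, differed by 1.70 and 1.67. CCNB2, the second B-type cyclin, stayed under 1 with a difference of 0.64, 273 against 188 TPM at the medians and 80.8% of pairs.

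Kinetochore and checkpoint genes were split. Of 33 genes past the floor, 11 were at least 1 higher and 1 at least 1 lower, and the median was 0.42. CENPA, the histone H3 variant that marks centromeres, ran from 13.9 to 132 TPM in high cells (median 69.6) and from 0 to 39.2 TPM in low cells (median 8.87), and was above TPM 1 in 22 of 22 and 17 of 22 cells. HJURP, the chaperone that loads CENPA, had medians of 38.1 and 6.16 TPM, so that the variant and its chaperone were both higher, by 3.03 and 2.20. NDC80 and NUF2, partners in the microtubule-binding NDC80 complex, differed by 1.83 and 1.74, with medians of 65.0 against 21.8 TPM and 134 against 41.9 TPM. CENPE, a kinetochore kinesin, differed by 1.89 with medians of 20.9 and 5.25 TPM. CENPQ, a subunit of the constitutive centromere complex, was the 1 gene at least 1 lower, at -1.07. It had 15.4 TPM in high and 33.8 TPM in low cells at the medians, and the high cell was above in 24.8% of pairs. In all, 5 of the 33 genes were below 0. The others were CENPO (-0.50), CENPK (-0.10), CENPM (-0.10) and CENPU (-0.08).

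The passenger complex and cytokinesis list had the highest median of all lists, 1.58, with 11 of 14 genes at least 1 higher and all 14 above 0. KIF23 and RACGAP1, which form the centralspindlin complex of the central spindle, differed by 2.79 and 2.53. KIF23 ran from 18.8 to 132 TPM in high cells (median 70.6) and from 0 to 50.6 TPM in low cells (median 15.3). RACGAP1 was above TPM 1 in 22 of 22 high cells and in 14 of 22 low cells. CDCA8, the Borealin subunit of the passenger complex, had medians of 62.9 and 13.5 TPM and a difference of 2.43. PRC1, which bundles the central spindle, had medians of 59.2 and 14.0 TPM, a difference of 2.16 and SDs of 0.50 and 1.36. In each of these genes the low cells varied more than the high cells, and some low cells overlapped the lower high cells.

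Spindle motors and microtubule-associated proteins held the most genes at least 1 higher, 22 of 30, with 29 above 0 and a median of 1.44. FAM83D, a spindle protein, and PSRC1, a regulator of spindle microtubule turnover, differed by 2.83 and 2.80. KPNA2, an importin that binds spindle assembly factors, had the highest share of pairs of all 6178 genes. It ran from 436 to 1846 TPM in high cells (median 1262) and from 84.4 to 519 TPM in low cells (median 343), a difference of 1.96 (SD 0.45 and 0.61) with 98.8% of pairs. TPX2, which activates Aurora A on the spindle, came next in pairs with 97.9%, at 128 against 34.4 TPM. HMMR, CKAP2L, DEPDC1, ARHGAP11A and PIF1 differed by 2.20 to 2.36. KIF15, a spindle kinesin, was the 1 member under 0, at -0.17.

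The anaphase-promoting complex and the condensin and cohesin lists showed smaller values. Of 17 genes past the floor in each, 1 was at least 1 higher, CDC27 (1.32), a core subunit of the anaphase-promoting complex, and NCAPG (1.40), a condensin I subunit. Over all genes 4.68% were at least 1 higher. The medians were 0.34 and 0.14, and in the cells between the groups they were 0.067 and -0.17, with 10 and 5 of 17 genes above 0. UBE2S, which extends ubiquitin chains for the complex, and FBXO5, its inhibitor, differed by 0.59 and 0.61, within an SD of 0.83 to 1.92 across cells.

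**Figure D3:**
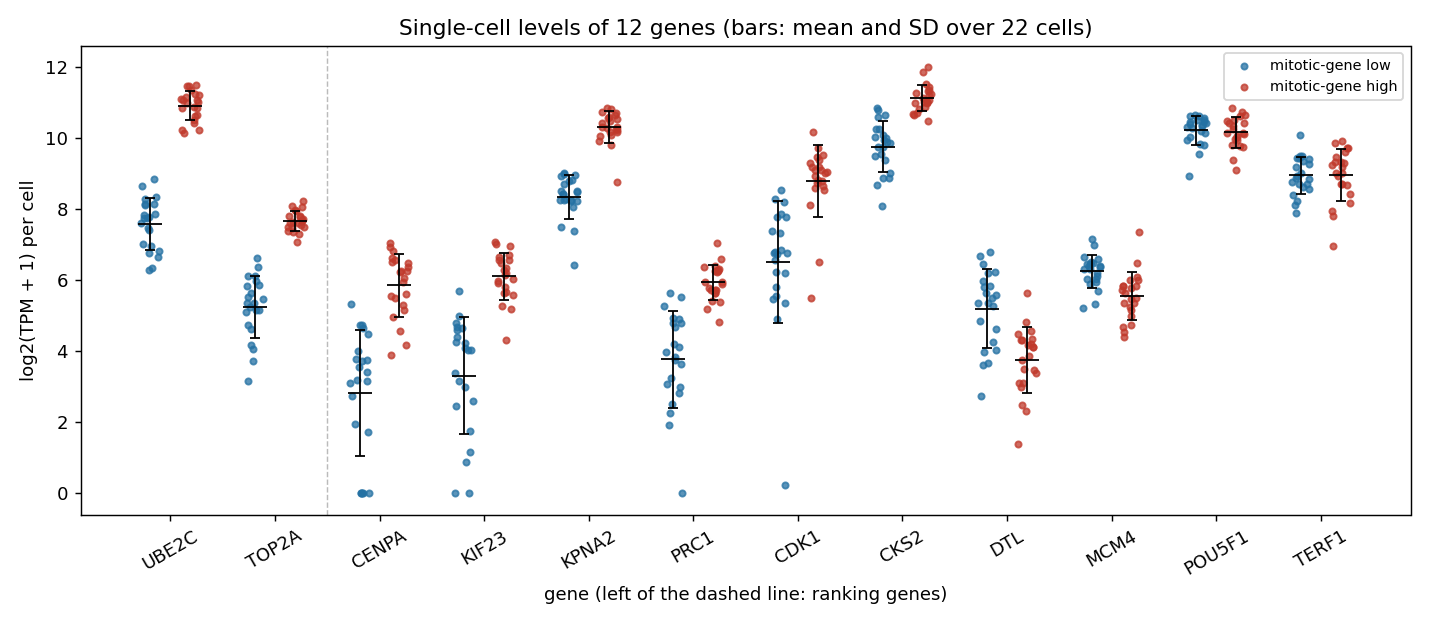
Log2(TPM + 1) of 12 genes in single cells, mitotic-gene low beside mitotic-gene high (points: 22 cells each, bars: mean and SD). UBE2C and TOP2A, left of the dashed line, were used for the ranking. CENPA, KIF23, KPNA2, PRC1, CDK1 and CKS2 are higher and DTL and MCM4 lower in high cells, while POU5F1 and TERF1 overlap throughout.

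The 94 mitotic genes moved with the score cell by cell. Their mean log2(TPM + 1) per cell ran from 5.51 to 6.11 in the high cells and from 3.84 to 5.04 in the low cells, and the groups did not overlap (5.77 ± 0.15 against 4.65 ± 0.27). Over the 68 cells, Pearson r with the score was 0.93 and Spearman rho 0.93. The cells share normalisation and library preparation, so the correlation is a description. Within the 24 cells between the groups r was 0.69, within the low cells 0.71 and within the high cells 0.47.

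The 24 cells between the groups and the 53 cells with 8000 or fewer detected genes did not enter the group differences. The 24 were among the 68 cells that were ranked and that set the floor. Among the 24, the 12 cells with higher scores against the 12 with lower scores gave 73 of 94 mitotic genes above 0, with a median of 0.30. Mean scores were 6.99 and 6.40 in that split, closer together than the 7.62 and 5.59 of the main groups. Of all genes 52.2% were above 0 in that split, and their median was 0.02. In the 53 gene-poor cells, the 17 highest against the 17 lowest (mean scores 7.15 and 2.94) gave 90 of 94 above 0 with a median of 1.70. There 86.0% of all genes were above 0 with a median of 1.06, and the high cells had 6132 detected genes against 5081, so differences in those cells are read relative to that median. In the cells between, the genes with the highest Pearson r with the score over 24 cells were KPNA2 (0.73), KIF2C (0.63), a kinesin that removes tubulin from microtubule ends, FAM83D (0.62), MICA (0.61) and CDC16 (0.60), a subunit of the anaphase-promoting complex. Differences of KPNA2, KIF2C and FAM83D in those cells were 0.74, 1.25 and 1.32. CENPE and NCAPG were at -0.16 and -0.18 there, and at 2.68 and 0.74 in the gene-poor cells. Of the 15 highest genes, HYLS1, a centriole protein, and SNAPC5, a subunit of the complex that transcribes small nuclear RNA genes, were the 2 outside the mitotic lists. HYLS1 differed by 3.08 in the comparison, with 20 and 11 of 22 cells above TPM 1. It was 0.975 in the cells between and -1.19 in the gene-poor cells. SNAPC5 differed by 2.23 and was -0.17 in the cells between and 1.05 in the gene-poor cells.

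Within the long telomere cells alone (15 high, 16 low) the list medians were 1.32 for the passenger complex and 1.46 for spindle motors, and within the medium telomere cells (5 and 5) 1.99 and 1.31, while the median of all genes was 0.09 and 0.26. The medians of both lists were above 0 in the long and in the medium telomere cells, and the short telomere cells (2 and 1) were too few to compare. Over the 18 lists with at least 3 genes past the floor, the long and medium medians differed in sign for 4 (shelterin and telomerase, p53 and stress, proteasome, and heat shock). This split of the high and low cells was chosen after seeing the data.

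Genes of replication and the G1/S transition went the other way by a smaller amount. Of 52 past the floor, 35 were below 0 where 36.4% of all genes were, the median was -0.26, and 2 were at least 1 lower against 0 at least 1 higher. Their mean per cell was 5.21 ± 0.19 in high cells (lowest 4.81, highest 5.54) and 5.44 ± 0.22 in low cells (5.05 to 5.85), and the high cell was above the low one in 20.7% of pairs. Pearson r with the score was -0.37 over 68 cells, -0.35 over the 24 between, 0.15 within the low cells and -0.004 within the high cells. DTL, the receptor that directs the licensing factor CDT1 to destruction in S phase, ran from 1.61 to 48.8 TPM in high cells (median 15.0) and from 5.66 to 111 TPM in low cells (median 41.9), with a difference of -1.45 and 16.9% of pairs. GINS4, a subunit of the replicative helicase, differed by -1.07, with medians of 8.29 and 16.9 TPM. MCM2, a helicase subunit, had medians of 9.09 and 20.6 TPM and a difference of -0.78. MCM4, named after its values were seen for its low share of pairs, had medians of 46.0 and 80.1 TPM, a difference of -0.71 and 16.7% of pairs. The genes whose promoters are printed with E2F matches differed by -0.46 (MCM6), -0.30 (PCNA) and -0.54 (GINS2). Of all 21 members with an E2F match, 14 were below 0 and 7 above, with a median of -0.23, and of the 25 members with a promoter and no match 15 were below 0 and 10 above, with a median of -0.22. DBF4, the activating subunit of the CDC7 kinase, ran against the list at 0.94. In the 24 cells between the groups the list median was -0.20 with DTL at -0.59 and GINS4 at 0.23, and in the gene-poor cells the list median was 1.09, close to the 1.06 of all genes, with DTL at 1.47.

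**Figure D4:**
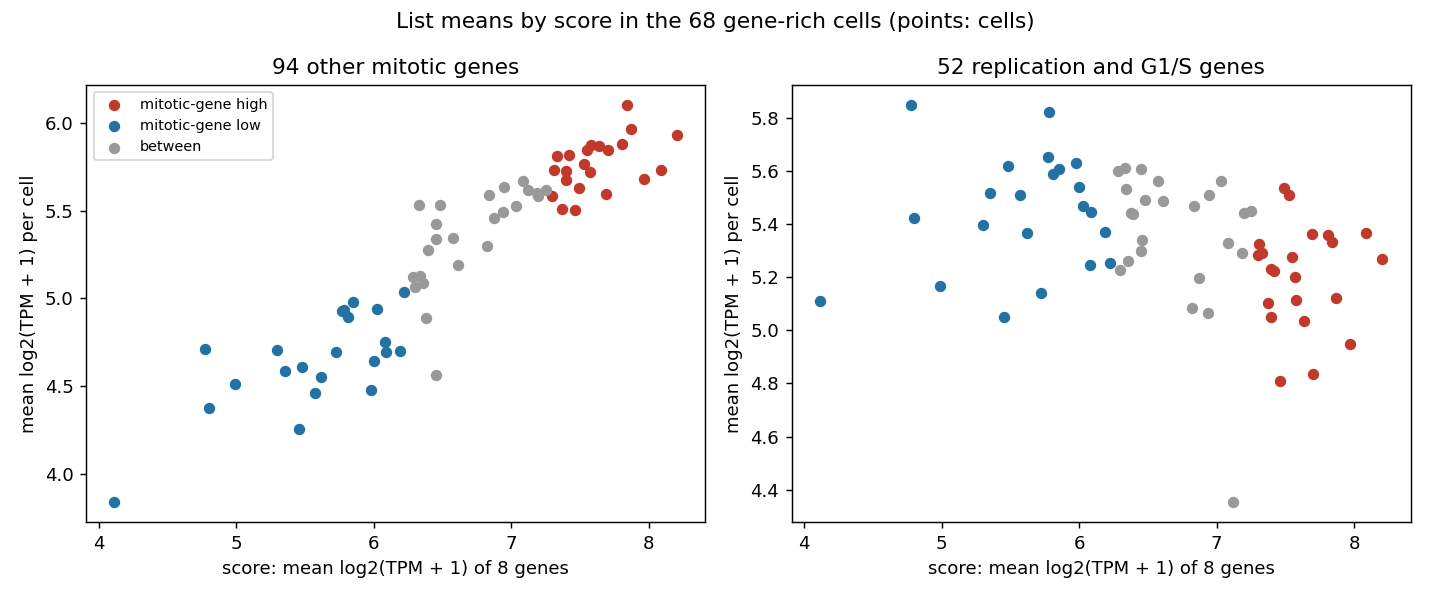
Mean log2(TPM + 1) per cell of 94 mitotic genes (left) and 52 replication and G1/S genes (right) by score, over 68 cells coloured by set. The mitotic means climb with the score (Pearson r 0.93) and the replication means are lower in high cells (r -0.37), with 1 cell between the groups at 4.35.

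The share of promoters that hold each motif differed between the lists, and it is given as counts with no test. A CHR match lay in 32 of 43 promoters (74.4%) of mitotic-list genes at least 1 higher, in 19 of 34 (55.9%) of the mitotic-list genes under 1, and in 583 of 5066 (11.5%) of all genes past the floor. Among the 27305 promoters of the reference 16.6% held one. Genes at least 1 higher outside the mitotic lists held it in 27 of 192 promoters (14.1%), near the share of all genes. Replication and G1/S genes held it in 4 of 46 (8.7%) and an E2F match in 21 of 46 (45.7%), where mitotic-list genes at least 1 higher held an E2F match in 6 of 43 (14.0%) and all genes past the floor in 7.97%. CCAAT was frequent in both, with 81.4% and 56.5%, against 39.1% of genes past the floor. Of the CHR matches of mitotic-list and ranking genes, 70.4% began within 50 bases of the start, against 27.1% over all promoters. TTCGAA reads the same on both strands, and in both of these shares such a site was counted on each strand. Of the 15 highest genes, 13 had a promoter in the table and 11 of these held a CHR match. FAM83D and RACGAP1, and UBE2C and AURKA among the ranking genes, were not matched. These matches are descriptions of letters in a fixed window, and binding was not measured.

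**Figure D5:**
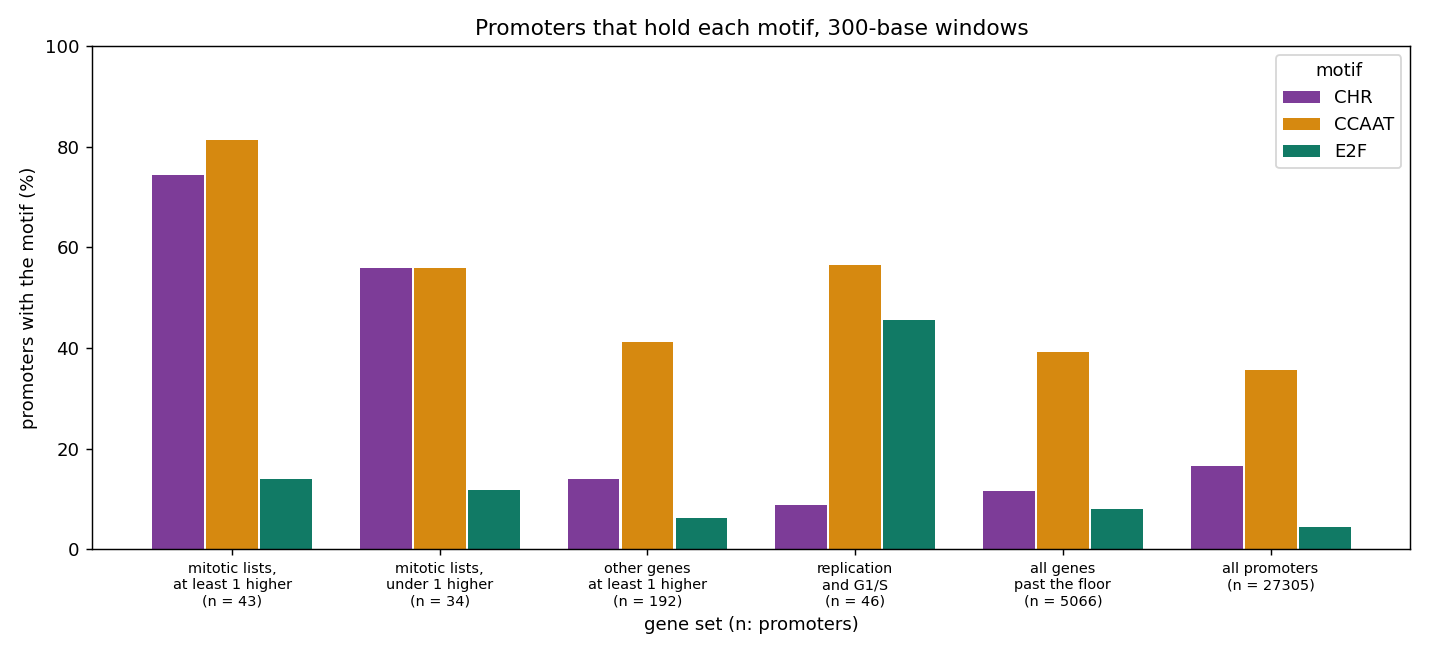
Percentage of promoters (300-base windows) that hold a CHR, CCAAT or E2F match, by gene set, with the number of promoters under each. CHR is in 74.4% of mitotic-list genes at least 1 higher and 8.7% of replication genes, and E2F in 14.0% and 45.7%.

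Pluripotency genes had a median difference near 0, with 3 members lower. The 22 past the floor had a median of 0.00, and their mean per cell had a Pearson r of -0.07 with the score. POU5F1, the core pluripotency factor OCT4, ran from 544 to 1840 TPM in high cells (median 1122) and from 489 to 1585 TPM in low cells (median 1300), a difference of -0.06 with SDs of 0.43 and 0.41. NANOG had medians of 220 and 218 TPM and a difference of 0.04. Both groups therefore expressed the defining markers of the line in 22 of 22 cells. LEFTY1, an inhibitor of Nodal signals, and DPPA5 and DPPA3, genes of early germ cells and naive pluripotency, were the 3 of 22 members at least 1 lower, at -1.43, -1.41 and -1.11, where 0.89% of all genes were. Each was above TPM 1 in only part of the cells, 10 and 13 of 22 for LEFTY1, 12 and 15 for DPPA5 and 7 and 12 for DPPA3, with SDs of 2.41 to 3.09, larger than the differences. In the cells between, DPPA5 and DPPA3 had the opposite sign (1.25 and 0.57).

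Of 26 markers of germ layers, fibroblasts, blood and vessels, 6 were at 0 in all 44 cells (among them CDX2, GATA6, EOMES and DCN) and 14, these 6 included, were above TPM 1 in at most 4 cells. The other 12 were above TPM 1 in 6 to 41 of the 44 cells, with COL1A2, a fibrillar collagen gene, in 21 high and 20 low cells, KRT7, an epithelial keratin, in 11 and 10, FGF5 in 8 and 11 and MIXL1, a mesendoderm factor, in 7 and 11. The summed level of all 26 ran from 12.0 to 96.7 TPM in high cells (median 25.7) and from 16.7 to 141 TPM in low cells (median 46.6). It was lower in the high cells, with means of 35.8 ± 23.0 and 52.1 ± 31.4 TPM, and the high cell was above the low cell in 30.4% of pairs. OTX2, the 1 marker past the floor and also a gene of primed pluripotent cells, was at -0.996 with SDs of 1.99 and 2.06. The part of these levels in the comparison was not tested.

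Genes of telomere maintenance past the floor had small differences over all cells. Of 14 shelterin and telomerase genes, TERT, TERC, TERF2, POT1, ACD and TEP1 were below the floor and were not compared. The 8 past the floor had a median of 0.01 and a range from -0.29 to 0.26. In the long telomere cells their median was -0.25 and in the medium telomere cells 0.74, where the medians of all genes were 0.09 and 0.26. TERF1, the shelterin protein that binds telomeric repeats, ran from 122 to 963 TPM in high cells (median 547) and from 236 to 1082 TPM in low cells (median 476), a difference of 0.01 with SDs of 0.74 and 0.53. MELK, a kinase of proliferating cells, had medians of 49.4 and 45.7 TPM and a difference of 0.74, below both SDs of 0.78 and 1.36.

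G1 regulators were mostly too low to compare, with 10 of 23 past the floor, a median of 0.09 and CDK2 at -1.03. Oxidative phosphorylation (54 genes, median 0.02), glycolysis (19, 0.06), the proteasome (31, 0.01) and tubulin, actin and other housekeeping genes (31, 0.07) had 0 genes past 1 in either direction. Ribosomal protein genes had 75 of 83 below 0, where 36.4% of all genes were, with a median of -0.12. In the cells between the groups 50 of 83 were above 0, where 52.2% of all genes were, with a median of 0.02. Of 11 p53 and stress genes past the floor, 0 passed 1. DNAJB1, a heat shock co-chaperone of HSP70, stood alone in its list of 17 at 1.83, with 80.4 against 25.5 TPM at the medians and 86.4% of pairs. Of 73 replicative histone genes, 13 were past the floor. The libraries were made from polyadenylated RNA, so histone mRNA without a poly(A) tail would be missed. Of the 13, 1 was at least 1 higher and 1 at least 1 lower, with a median of -0.008. Over all genes 4.68% were at least 1 higher and 0.89% at least 1 lower. HIST1H1C, a linker histone, was the higher one at 1.52 with SDs of 1.78 and 2.26, and it was at -0.64 in the cells between.

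The lower end was made up of scattered genes. Genes with symbols of small nucleolar, micro and other small RNAs were 1.62% of the genes tested (100). They were 18 of the 55 at least 1 lower, and held 8 of the 15 lowest places. Another 6 of these 100 were at least 1 higher, where 4.68% of all genes were. SNORD79, the lowest at -1.99, was above TPM 1 in 7 high and 14 low cells, and SNORD86 (-1.82) in 14 and 19, and the SDs of both genes lay between 2.57 and 3.21, larger than the differences. In the cells between, they were 0.97 and 0.63, of the opposite sign. The median SD in low cells was 2.56 for such genes and 1.13 for all. The libraries were made from polyadenylated RNA, and small RNAs inside host introns cannot be told apart from host transcripts here. The 6 genes lower under the stricter rule were DTL, CENPQ, CLK2, a splicing kinase (-1.54), TSPAN5, a tetraspanin (-1.18), CKAP4, a membrane protein of the endoplasmic reticulum (-1.07), and TAF10, a subunit of TFIID (-1.02). CDKN2AIP, a regulator of p53, was at -1.44 with medians of 2.72 and 12.9 TPM. In the cells between the groups CLK2 was at 0.22 and the other 5 genes of the stricter rule and CDKN2AIP were below 0.

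Several of these levels could share reads with other loci. The strand of counting is not given in the sources used here, and in the GRCh37 annotation exons of CENPA overlap SLC35F6, those of RACGAP1 overlap AQP6, those of HJURP overlap MROH2A, those of SNAPC5 overlap MAP2K1, those of DTL overlap INTS7, those of CDK2 overlap PMEL, those of PLK1 overlap ERN2 and those of CCNA2 overlap EXOSC9. Coding exons also overlap those of CKAP2L (NT5DC4), CDC25C (FAM53C), NCAPG (LCORL), DNAJB1 (TECR), DBF4 (SLC25A40) and GINS2 (GSE1). The same holds for SNORD86 (NOP56), CKAP4 (TCP11L2), TAF10 (ILK), POU5F1 (TCF19) and ARHGAP11A (ARHGAP11A-SCG5). PRC1 and LEFTY1 overlap coding genes without a symbol. Pseudogenes named after the gene number 5 for UBE2C, 2 for AURKA, 3 for KPNA2, 7 for TERF1, 6 for POU5F1, 11 for NANOG and 11 for DPPA3. They number 3 each for PCNA, DBF4 and DPPA5, and fewer for some other named genes. Reads of these pseudogenes cannot be separated from the gene here.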

How the data were processed

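The 121 single-cell libraries (81 long, 25 medium and 15 short telomere cells) were made by Smart-seq2 chemistry after removal of genomic DNA and read as 50-base single ends. The authors deposited a table of TPM values per gene and cell. The methods name TopHat 2.1.0, hg19 and HTSeq counts, and the submitters' processing notes name TopHat2 and RSEM, so the tool that made the TPM is not settled. Reads per cell cannot be recovered from TPM, so the depth of each cell was not available here and only detected genes stand for it. Rows run alphabetically by symbol and 25610 were used, genes after ZFR were not analysed here, and TPM summed to between 979828 and 997050 per cell. No cell columns were identical, and no doublet caller was run.

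Values were log2(TPM + 1), with a floor of a mean of 10 TPM over the 68 cells. Groups were compared by the difference of means, the SD across cells and the share of 484 cell pairs, and cell shares have exact (Clopper-Pearson) 95% intervals. Named genes were the 15 highest and 15 lowest differences, up to 6 per list, the ranking genes, MELK, TERF1, NANOG, POU5F1 and the 10 highest correlations in the cells between. Members and lists were chosen with earlier results of these data known. The calculation was tested on simulated data. Figures were drawn with matplotlib 3.10.9, and values came from Python 3.11.15 with pandas 2.3.3, numpy 2.4.6 and scipy 1.17.1. Alternatives changed the pseudocount, floor, summary, scaling, group sizes, score and cells. The split by telomere group and the values relative to the median of all genes were added after seeing the data.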

Additional observations from a re-analysis of the deposited data

How the results depend on the processing

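No paired analysis was possible because the groups were taken from a ranking of single cells and the comparison comes from no test. All values come from 1 cell line without named cultures, the depth per cell is unknown, and TPM, a share of each cell's total, cannot tell a lower transcript number from a larger total.

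The number of genes at least 1 higher lay between 246 and 334 and the number at least 1 lower between 43 and 73 with the scaled score, with each ranking gene left out, with the score after a fit on detected genes, in cells with more than 9000 detected genes, in long telomere cells only and under both rescalings. The counts were 595 higher and 137 lower at a pseudocount of 0.1, 42 and 3 at 10, 477 and 113 without a floor and with a floor of 1 TPM, 35 and 8 with a floor of 50 TPM, 99 and 6 with the demand on pairs, and 20 and 0 at a difference of 2. The number lower was 90 by the median over cells, 117 with 15 against 15 cells and 127 in the cells between, and the number higher was 146 by the ratio of means. With 34 against 34 cells, 132 were higher and 18 lower. Across all 121 cells (40 against 40) 3534 were higher and 16 lower, and in the 53 gene-poor cells 3256 and 138. In these 2 settings the median of all genes was 1.12 and 1.06.

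List medians moved by less than 1 SD of the list mean across cells in 375 of 414 cases. At a pseudocount of 10 the passenger complex was at 1.02 and spindle motors at 1.01. In the cells between, the medians were CDK1 switch 0.31, passenger complex 0.37, spindle motors 0.43 and anaphase-promoting complex 0.067. Across all 121 cells they were CDK1 switch 1.68, kinetochore 1.57, passenger complex 2.76, spindle motors 2.43, anaphase-promoting complex 1.33, condensin and cohesin 1.12, replication 0.90, G1 regulators 1.43, pluripotency 1.08, shelterin 0.62, p53 and stress 1.08, glycolysis 0.95, housekeeping 0.85, proteasome 0.83, heat shock 0.92 and ribosomal proteins 0.47. In the gene-poor cells they were CDK1 switch 1.42, kinetochore 1.38, passenger complex 2.38, spindle motors 1.81, anaphase-promoting complex 1.51, condensin and cohesin 1.55, replication 1.09, G1 regulators 1.40, pluripotency 1.31, shelterin 0.64, p53 and stress 0.82, glycolysis 0.64, oxidative phosphorylation 0.33, housekeeping 1.16, proteasome 1.25, heat shock 1.44 and ribosomal proteins 0.65. These 2 settings move all genes upward, so a list is read against the medians of 1.12 and 1.06. Relative to them the replication list was at -0.22 and 0.03.

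Of the named genes at least 1 higher or lower, these had the opposite sign in the cells between: SNAPC5 -0.17, CENPE -0.16, NCAPG -0.18, GINS4 0.23, CLK2 0.22, SNORD79 0.97, SNORD86 0.63, DPPA5 1.25, DPPA3 0.57 and HIST1H1C -0.64. Across all 121 cells these did: CENPQ 0.69, DTL 0.07, CDK2 1.29, CLK2 0.50, CDKN2AIP 0.35, SNORD86 0.85, LEFTY1 0.14, DPPA5 0.63, DPPA3 0.08, TSPAN5 0.61, CKAP4 1.01 and TAF10 1.60. Relative to the median of all genes, 2 of these 12 (CDK2 and TAF10) had the opposite sign. In the gene-poor cells these were of opposite sign as measured: HYLS1 -1.19, CENPQ 0.84, DTL 1.47, GINS4 0.23, CDK2 2.08, CLK2 1.35, CDKN2AIP 1.26, SNORD79 0.25, SNORD86 1.48, LEFTY1 1.27, TSPAN5 0.30, CKAP4 2.93 and TAF10 2.07. Relative to the median, 9 of these 13 still were, and CENPQ, GINS4, SNORD79 and TSPAN5 stayed below it. The higher genes PIF1 (0.74), CCNF (0.79), NCAPG (0.74), CKS2 (1.05) and SNAPC5 (1.05) were above 0 there but below the median. The cause was not tested. Under the other alternatives, 0 such genes changed sign as measured. Detected genes and telomere make-up moved by less than the spread between cells or the exact interval under the other group sizes, scores and detection levels.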
